A study of Homo sapiens with 27 samples.

Results

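Small nucleolar RNAs (snoRNAs) of both classes were followed after knockdown of SIRT3 in lymphoma cells. The members are the genes whose symbol begins with SNORA (box H/ACA class) or SNORD (box C/D class) and that reached 1 CPM (reads of a gene scaled to a common library total) in at least 3 of the 27 libraries. They were thus chosen by their measured level, knockdown libraries included. Of 429 snoRNAs in the tables (133 H/ACA and 296 C/D), 79 were selected on this rule, 25 of the H/ACA class and 54 of the C/D class. Another 240 snoRNAs had at least 1 read but stayed under the rule, and 110 were at 0 in every library. Measured by the library ranked 3 from the top, the members closest to the limit were SNORD14A at 1.011, SNORD14E at 1.014 and SNORD19B at 1.015 CPM. Just outside were SNORA25 at 0.997, SNORD45C at 0.989 and SNORD60 at 0.964 CPM. In the shCTRL libraries alone, 33 members (12 H/ACA and 21 C/D) met the same level in at least 3 libraries, so the other 46 members entered only with the help of knockdown libraries.

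RNA-seq was made from 3 established human diffuse large B-cell lymphoma lines, Karpas422, OCI-Ly1 and HBL1, which the study assigns to the OXPHOS, GCB and ABC subtypes. Each line carried a control hairpin (shCTRL) or a hairpin against SIRT3 (shSIRT3-1 or shSIRT3-2), delivered by lentivirus, and was collected on day 8. The 9 groups hold 3 replicates each. Every group is 1 cell line with 1 hairpin, and the labels do not say whether replicates were separate cultures, so p-values measure the spread between these libraries. SIRT3, the mitochondrial deacetylase that was targeted, lay between 9.14 and 16.4 CPM in the 9 shCTRL libraries, between 1.06 and 2.79 CPM with shSIRT3-1 and between 2.84 and 6.24 CPM with shSIRT3-2. No knockdown library reached the SIRT3 level of any shCTRL library.

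snoRNAs are nuclear guide RNAs. Those of the C/D class pair with ribosomal RNA and direct ribose methylation by fibrillarin, and those of the H/ACA class direct pseudouridylation by dyskerin. A few members of each class act in the cleavage of the ribosomal RNA precursor instead of its modification. In vertebrates most are excised from introns of host genes, many of which encode ribosomal proteins or make no protein at all, and the exosome and other nucleases trim their ends while the core proteins protect them.

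The symbols were matched to the GENCODE annotation of hg19, the build of the deposited data. By name, chromosome, length and shared host, 47 members could be placed. Of these, 46 lay inside an intron of the spliced transcripts of a host gene, and SNORD12 overlapped an exon of ZFAS1. RefSeq neighbourhoods gave a host for 76 of the 79 members, 36 hosts in all. For members that could not be placed, the host is the gene whose RefSeq span holds them. Their strand and their position in an intron were not checked. SNORD141A, SNORD3A and SNORD88B had none. RefSeq lengths ran from 121 to 207 bases (median 135) for the H/ACA members and from 55 to 237 bases (median 76.5) for the C/D members.

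The genomic sequences below are those of members with large rises that could be placed and, for contrast between hosts, of all 5 SNORD14 copies, which come from 2 host genes. Capitals mark box C (searched as TGATG in the first 25 bases) and box D (CTGA in the last 25 bases), or box H (ANANNA in the central part) and box ACA (ACA in the last 8 bases). Only the strand of the gene was searched.
SNORD14C, chr11:122930043-122930130, minus strand: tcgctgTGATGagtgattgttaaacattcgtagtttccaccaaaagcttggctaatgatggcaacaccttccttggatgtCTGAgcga
SNORD14D, chr11:122929617-122929703, minus strand: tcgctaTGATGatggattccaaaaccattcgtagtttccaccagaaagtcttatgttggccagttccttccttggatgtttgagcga
SNORD14E, chr11:122928785-122928869, minus strand: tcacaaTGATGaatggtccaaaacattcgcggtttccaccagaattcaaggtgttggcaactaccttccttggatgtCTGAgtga
SNORD14A, chr11:17096201-17096291, minus strand: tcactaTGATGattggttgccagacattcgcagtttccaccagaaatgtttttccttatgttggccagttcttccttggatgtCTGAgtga
SNORD14B, chr11:17097326-17097415, minus strand: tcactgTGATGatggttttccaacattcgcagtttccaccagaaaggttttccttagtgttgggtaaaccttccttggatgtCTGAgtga
SNORD34, chr19:49994161-49994231, plus strand: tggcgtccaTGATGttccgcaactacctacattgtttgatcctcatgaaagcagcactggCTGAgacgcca
SNORD12, chr20:47897220-47897309, plus strand: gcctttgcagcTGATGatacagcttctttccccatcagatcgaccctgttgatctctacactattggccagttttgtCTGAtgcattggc
SNORD2, chr3:186502585-186502653, plus strand: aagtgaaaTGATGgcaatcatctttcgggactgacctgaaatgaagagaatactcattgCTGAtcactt
SNORA57, chr11:62432894-62433042, plus strand: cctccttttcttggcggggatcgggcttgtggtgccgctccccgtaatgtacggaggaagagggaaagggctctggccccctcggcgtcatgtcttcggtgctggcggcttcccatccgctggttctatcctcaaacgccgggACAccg
SNORA4, chr3:186505401-186505538, plus strand: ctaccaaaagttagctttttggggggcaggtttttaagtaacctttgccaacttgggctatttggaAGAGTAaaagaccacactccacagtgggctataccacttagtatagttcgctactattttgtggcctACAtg
SNORA33, chr6:133138358-133138487, plus strand: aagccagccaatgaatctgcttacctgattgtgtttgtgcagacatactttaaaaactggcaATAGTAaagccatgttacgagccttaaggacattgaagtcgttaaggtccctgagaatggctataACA
SNORA52, chr11:811681-811814, plus strand: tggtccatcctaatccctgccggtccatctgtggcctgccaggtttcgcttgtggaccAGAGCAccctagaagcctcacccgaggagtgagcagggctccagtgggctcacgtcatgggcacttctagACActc

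Both boxes were found in 30 of the 31 placed C/D members, and in 1.6% of 124 flanking windows of the same lengths. SNORD14D lacked CTGA at its end. Of the 16 placed H/ACA members, 13 held both boxes, against 4.7% of 64 flanking windows. SNORA57 had no match to box H, and SNORA40 and SNORA81 had no ACA in the last 8 bases. A missing match says only that these letters are not in the window. At least 50 bases of SNORA73B, SNORA70, SNORA40 and SNORA10 occur without a mismatch elsewhere in hg19 (the longest shared run was 111 bases, in SNORA10), so reads of these 4 cannot be assigned with certainty. The 32 members that could not be placed, SNORA63 and SNORA73A among them, were not searched for copies, and the same limit may hold for them. The SNORD14 copies were 75.6 to 85.9% identical in pairs and shared no run of 50 bases.

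The libraries held between 28694398 and 53405456 reads on genes, recovered as whole reads from the CPM values, and the CPM values of all genes summed to 40.3 to 45.6% of the denominators. Whether the rest is reads outside genes or both mates of a pair being counted in the denominator was not tested. Members were low: their mean CPM lay between 0.33 and 3.62, except for SNORD141A at 52.9. The median member had 92 reads in its median library, and the least covered values rested on 4 reads. The B-cell markers CD79A, CD79B, MS4A1 and PAX5 lay between 136 and 740 CPM, and the T-cell, myeloid and stromal markers CD3E, CD3D, CD14, LYZ and COL1A1 at 1.59 CPM or less. Replicate 3 of HBL1 with shSIRT3-1 stood apart from its group in its snoRNA level and had the lowest such share, 40.3%.

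RefSeq places SNORD141A inside EEF1A1P5, a processed copy of the elongation factor gene EEF1A1, which is not among the hosts counted above. EEF1A1 itself stood at 153 to 532 CPM. The SNORD141A level of 504 CPM per kilobase compares with 40.5 or less for every other member. SNORD141A was not placed, and its sequence was not compared with EEF1A1. Its reads may not be separable from those of EEF1A1 copies. It was left out of the class sums. Per kilobase of RefSeq length, the next members by mean level over all libraries were C/D snoRNAs: SNORD47 at 40.5, SNORD2 at 40.5, SNORD76 at 34.8 and SNORD80 at 33.8 CPM per kilobase. In the shCTRL libraries the order differed by line. After SNORD141A the highest was the H/ACA member SNORA104 in Karpas422 (29.75), SNORD22 in OCI-Ly1 (27.34) and SNORD47 in HBL1 (38.28). SNORD47, SNORD76 and SNORD80 are 3 of 7 members with GAS5 as host, and SNORD2 comes from EIF4A2. The lowest members were SNORD17 at 3.52 and SNORA52 at 3.78 CPM per kilobase.

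In the control cells the lines differed. Of the 33 members tested in the 9 shCTRL libraries, 30 differed between lines (limma F test, adjusted p under 0.05), as did 85.1% of all 12607 genes. HBL1 was higher than Karpas422 by at least 1.5 times for 18 of 21 C/D members and 4 of 12 H/ACA members, where 25.8% of all genes were called higher. Reaching 1 CPM in 3 of 9 shCTRL libraries can be done by 1 line alone, which favours a line with high values. Of the 33, 2 C/D members (SNORD44 and SNORD18C) and 2 H/ACA members (SNORA73A and SNORA73B) did so through HBL1 alone. Without these HBL1 was higher for 16 of 19 C/D and 2 of 10 H/ACA members. Some of these still needed HBL1 libraries, such as SNORD30 with 2 controls at 1 CPM in HBL1, 1 in OCI-Ly1 and 0 in Karpas422. The counts between lines thus stay favoured by the rule and are a description. HBL1 was lower for 5 members, all of the H/ACA class (28.8% of all genes). SNORA73B, from SNHG3, held 0.422, 0.294 and 0.371 CPM in Karpas422, 0.352, 0.242 and 0.319 CPM in OCI-Ly1 and 1.33, 1.78 and 1.47 CPM in HBL1. Its HBL1 values stood above the other lines without overlap, by 1.81 log2 units over Karpas422, and since the pair from SNHG3 entered through HBL1 alone, this is a description. SNORA73A, also with SNHG3 as host, stood 2.14 log2 units higher in HBL1 than in Karpas422. SNORD79, from GAS5, which reached 1 CPM in no Karpas422 control, stood 1.53 log2 units higher in HBL1. SNORD31 and SNORD22, from SNHG1, separated Karpas422 from both other lines. SNORD22 read 1.02, 1.08 and 1.22 CPM in Karpas422, 3.5, 2.87 and 3.97 CPM in OCI-Ly1 and 4.16, 3.58 and 2.82 CPM in HBL1. SNORA9, from SNHG15, was instead lowest in HBL1, with 1.41, 1.02 and 1.43 CPM in Karpas422, 1.46, 0.926 and 1.8 CPM in OCI-Ly1 and 0.294, 0.189 and 0.23 CPM in HBL1. SNORD2 and SNORA63, both from EIF4A2, did not pass the test between lines (limma adjusted p = 0.299 and 0.14).

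Knockdown of SIRT3 was accompanied by higher levels of both classes in all 3 lines. In HBL1 the 25 H/ACA members summed to 26.8 ± 1.35 CPM (SD, n = 3) with shCTRL, 54.7 ± 5.19 CPM with shSIRT3-1 and, with shSIRT3-2, 45.0 to 53.2 CPM with an SD of 4.41. The 53 C/D members other than SNORD141A summed to 56.8 ± 3.32, 116 ± 28.2 and 124 ± 2.54 CPM in the same order. These sums were 1.87 to 2.18 times those of shCTRL, and the knockdown libraries did not overlap the controls. SNORD3A gave 19.2 CPM of the C/D sum in replicate 3 of HBL1 with shSIRT3-2. Without it the 52 remaining C/D members summed to 55.2 ± 4.83, 116 ± 28.6 and 115 ± 12.1 CPM, which is 2.10 and 2.09 times the control.

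In Karpas422 the H/ACA sum went from 25.9 ± 1.62 CPM with shCTRL to 44.8 ± 4.70 with shSIRT3-1 and 35.5 ± 3.64 CPM with shSIRT3-2. Its C/D sum went from 27.3 ± 1.43 to 56.2 ± 8.93 and 44.1 ± 3.23 CPM. Here too no knockdown library overlapped the controls. OCI-Ly1 changed least: the H/ACA sum was 24.1 ± 3.73, 33.4 ± 2.05 and 28.01 ± 2.91 CPM, and the C/D sum 43.2 ± 6.69, 60.0 ± 1.46 and 55.0 ± 7.84 CPM. Its shSIRT3-1 libraries lay above the controls for both classes, while the H/ACA sums with shSIRT3-2 (25.9 to 31.3 CPM) overlapped those with shCTRL (20.4 to 27.9 CPM). Because the members were selected on a level that knockdown libraries helped to reach, the sums were also taken over every snoRNA of the tables but SNORD141A. With shSIRT3-1 and shSIRT3-2 they stood, against shCTRL, at 2.06 and 1.89 times for the H/ACA class and 2.05 and 2.09 times for the C/D class in HBL1, 1.77, 1.38, 1.98 and 1.56 times in Karpas422, and 1.40, 1.19, 1.38 and 1.26 times in OCI-Ly1.

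**Figure D1:**
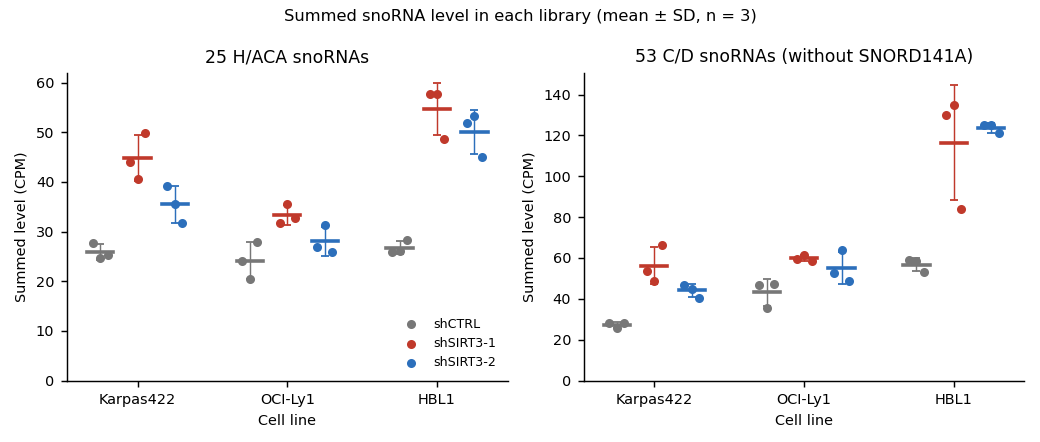
Summed CPM of the 25 H/ACA members (left) and the 53 C/D members other than SNORD141A (right) in each library, by cell line and shRNA. Points are libraries and bars the mean ± SD of 3. In Karpas422 and HBL1 every knockdown library lies above the controls. In OCI-Ly1 the shSIRT3-2 libraries reach into the control range for the H/ACA class. Replicate 3 of HBL1 with shSIRT3-1 is the lowest of the HBL1 knockdown libraries in the C/D panel, at 83.9 CPM.

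The share of the CPM denominator held by genes moved with shSIRT3-1 in HBL1 and Karpas422. In HBL1 it was 43.9 to 45.1% with shCTRL, 40.3 to 43.1% with shSIRT3-1 and 44.4 to 44.9% with shSIRT3-2. In Karpas422 it was 45.3 to 45.5, 43.2 to 45.0 and 44.5 to 45.6%, and in OCI-Ly1 41.9 to 44.5, 41.8 to 43.6 and 44 to 44.5%. The part of this share in the snoRNA levels was not tested. Counts per gene do not separate mature snoRNA from unspliced host intron, and more cells expressing a snoRNA and more of it per cell cannot be told apart.

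Gene by gene, the comparison of both SIRT3 shRNAs with shCTRL, with cell line as a covariate, called no member lower and most members higher. A gene was called when its limma adjusted p was under 0.05 and its change over 1.5-fold on the log2(CPM + 0.1) scale, which understates the change of low genes. Among the 33 members that met the level rule in the shCTRL libraries alone, 24 were called higher (7 of 12 H/ACA and 17 of 21 C/D), where 2.45% of all 13076 tested genes were. Among all 79 members 58 were called higher, 18 of 25 H/ACA and 40 of 54 C/D. The count of members called lower was 0, where 7.64% of all genes were. SNORA104 alone was lower at an unadjusted p under 0.05, and edgeR and DESeq2 on the recovered reads also called 0 members lower. Their counts of members called higher were 62 and 62, where 433 and 453 of all 13076 genes were. The calls depended on the scale. With a pseudocount of 1, 5 members were called higher (1.22% of all genes), although 72 members rose with an adjusted p under 0.05, against 73 with the pseudocount of 0.1. Without the HBL1 libraries 49 members met the level rule and 24 of them were called higher, where 2.37% of 12131 genes were.

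The median log2 fold change was 0.66 for the 33 members, 0.76 for the 25 H/ACA and 0.71 for the 54 C/D members, and -0.05 for all genes tested. With a pseudocount of 1 the median of all 79 members was 0.36, against 0.72 with 0.1. The interquartile ranges of the classes overlapped almost entirely (0.58 to 0.85 for H/ACA and 0.56 to 0.88 for C/D), and no difference between the classes was tested. Without any level filter, 319 snoRNAs entered the fit and 95 were called higher, against 1.64% of 23179 genes. For 15 members (6 H/ACA and 9 C/D), 10 of them among the 33, all 18 knockdown libraries exceeded the highest shCTRL library of their line, as they did for 1.02% of all genes tested.

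**Figure D2:**
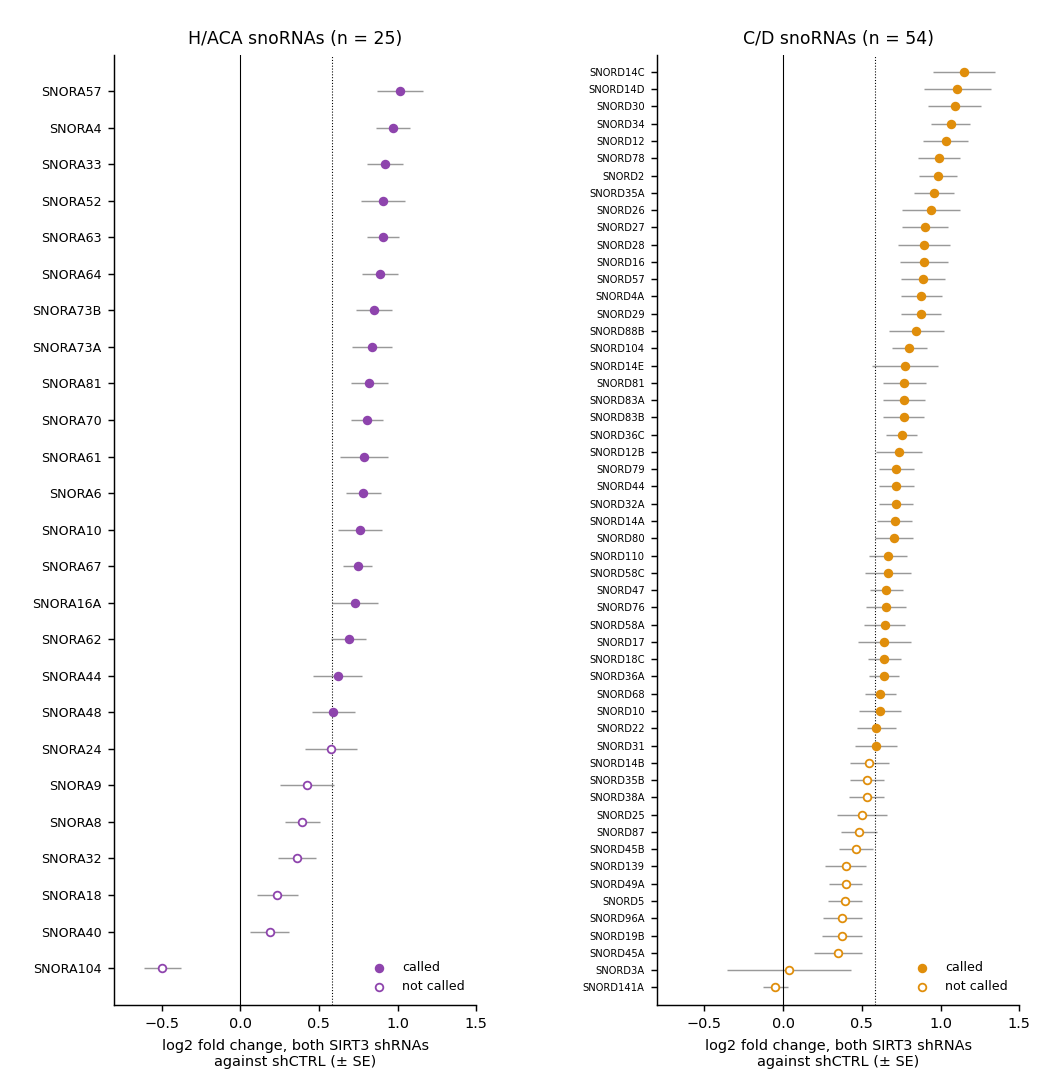
Log2 fold change of each member, both SIRT3 shRNAs against shCTRL over 3 lines, with its SE. Filled points were called, the dotted line marks 1.5-fold. Most members of both classes lie to the right of the dotted line, while SNORA104 lies at -0.49 and SNORD3A and SNORD141A lie near 0.

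Of the 5 C/D members with the largest called rises, SNORD14C, SNORD14D, SNORD34 and SNORD12 met the level rule only with the help of knockdown libraries, so their rank and p are partly set by that rule. The largest log2 fold change was that of SNORD14C, a guide RNA of the family that acts in the cleavage of the small-subunit rRNA precursor, encoded in the chaperone gene HSPA8. In HBL1 it read 0.761, 0.676 and 0.722 CPM with shCTRL, 3.6, 3.32 and 1.65 CPM with shSIRT3-1 and 4.22, 3.61 and 2.25 CPM with shSIRT3-2. In Karpas422 it read 0.45, 0.354 and 0.446 CPM with shCTRL, 0.868, 0.78 and 0.785 CPM with shSIRT3-1 and 1.22, 0.909 and 0.305 CPM with shSIRT3-2, and in OCI-Ly1 0.404, 0.208 and 0.169 CPM with shCTRL, 0.707, 0.39 and 0.534 CPM with shSIRT3-1 and 0.495, 0.421 and 0.539 CPM with shSIRT3-2. In HBL1 every knockdown value lay above the controls, in OCI-Ly1 the lowest knockdown value lay just under the highest control, and in Karpas422 replicate 3 of shSIRT3-2 fell under the controls. It had a log2 fold change of 1.15 ± 0.20 (SE), limma adjusted p = 6.06e-05. SNORD14D, from another intron of HSPA8, changed by 1.11 ± 0.21 (SE; limma adjusted p = 2.35e-04).

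SNORD30, from SNHG1, had the largest rise among the 33 members that met the rule in the shCTRL libraries alone. It read 0.281, 0.162 and 0.241 CPM with shCTRL, 0.739, 0.851 and 0.923 CPM with shSIRT3-1 and 0.705, 0.566 and 0.712 CPM with shSIRT3-2 in Karpas422. In OCI-Ly1 the values were 1.07, 0.571 and 0.896 CPM with shCTRL, 1.24, 1.49 and 1.25 CPM with shSIRT3-1 and 1.3, 1.75 and 1.28 CPM with shSIRT3-2. In HBL1 they were 1.26, 1.07 and 0.569 CPM with shCTRL, 2.76, 2.81 and 0.909 CPM with shSIRT3-1 and 2.76, 2.82 and 2.36 CPM with shSIRT3-2, and replicate 3 of shSIRT3-1 fell inside the control range while the other knockdown libraries lay above it. It had a log2 fold change of 1.09 ± 0.17 (SE), limma adjusted p = 1.76e-05. SNORD34 (from RPL13A) and SNORD12 (from ZFAS1), with log2 fold changes of 1.07 and 1.03, completed the 5 largest C/D rises (limma adjusted p = 5.94e-07 and 5.95e-06). SNORD2, from EIF4A2, did not overlap its controls in any line. It read 1.75, 1.43 and 1.86 CPM with shCTRL, 5.36, 4.99 and 5.14 CPM with shSIRT3-1 and 4.3, 4.54 and 3.77 CPM with shSIRT3-2 in HBL1 and had a log2 fold change of 0.98 ± 0.12 (SE), limma adjusted p = 1.30e-06.

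Of the 5 H/ACA members with the largest called rises, SNORA57, SNORA33 and SNORA52 met the level rule only with the help of knockdown libraries, while SNORA4 and SNORA63 met it in the shCTRL libraries alone. SNORA57 had the largest log2 fold change. It lies in METTL12 and read 0.619, 0.283 and 0.328 CPM with shCTRL, 1.66, 1.54 and 1.65 CPM with shSIRT3-1 and 1.19, 1.15 and 0.967 CPM with shSIRT3-2 in HBL1. In Karpas422 it read 0.244, 0.364 and 0.232 CPM with shCTRL, 0.761, 0.601 and 0.668 CPM with shSIRT3-1 and 0.723, 0.566 and 0.373 CPM with shSIRT3-2, and in OCI-Ly1 0.486, 0.225 and 0.607 CPM with shCTRL, 0.744, 0.914 and 0.802 CPM with shSIRT3-1 and 0.515, 0.588 and 0.579 CPM with shSIRT3-2. The HBL1 and Karpas422 values did not overlap their controls, and in OCI-Ly1 those of shSIRT3-2 did. It had a log2 fold change of 1.02 ± 0.15 (SE), limma adjusted p = 8.08e-06. SNORA4, with EIF4A2 as host like SNORD2 and SNORA63, came next. SNORA4 read 1.34, 1.34 and 1.03 CPM with shCTRL, 3.18, 2.6 and 3.73 CPM with shSIRT3-1 and 2.86, 2.46 and 2.86 CPM with shSIRT3-2 in Karpas422. In OCI-Ly1 it read 1.65, 1.39 and 2.17 CPM with shCTRL, 2.18, 2.9 and 2.27 CPM with shSIRT3-1 and 2.6, 2.65 and 2.53 CPM with shSIRT3-2, and in HBL1 1.87, 1.87 and 2.27 CPM with shCTRL, 5.18, 4.79 and 5.57 CPM with shSIRT3-1 and 4.83, 4.57 and 3.56 CPM with shSIRT3-2. Every knockdown library exceeded the controls of its line, with a log2 fold change of 0.97 ± 0.11 (SE), limma adjusted p = 3.28e-07. SNORA63, which had the highest mean CPM of the H/ACA class, changed by 0.91 ± 0.10 (SE; limma adjusted p = 2.94e-07), SNORA33 (from RPS12) by 0.92 and SNORA52 (from RPLP2) by 0.91 on the log2 scale. SNORA70, from RPL10 and among the 5 highest H/ACA members by mean CPM, changed by 0.81 ± 0.10 (SE; limma adjusted p = 1.42e-06).

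**Figure D3:**
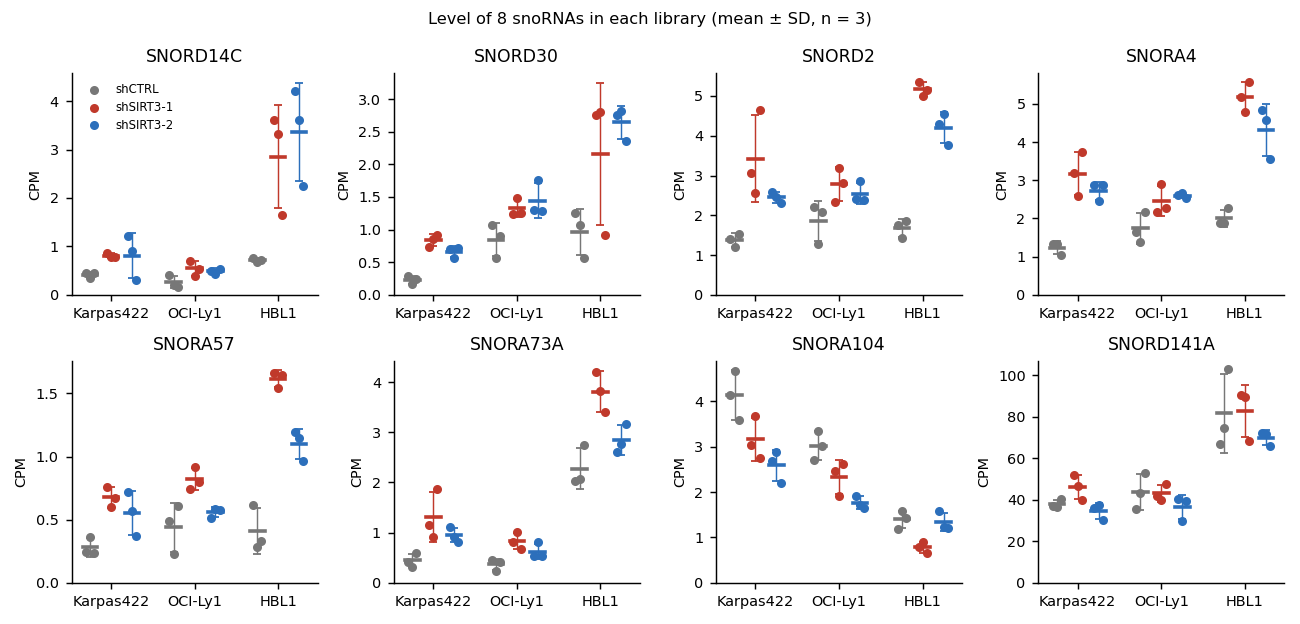
CPM of 8 members in each library, by cell line and shRNA, with the mean ± SD of 3. SNORD2 and SNORA4 lie above their controls in every knockdown library, SNORD14C reaches its highest values in HBL1 knockdown libraries, SNORA104 is lower in most knockdown groups, and SNORD141A overlaps its controls.

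In the comparison over 3 lines 58 of 79 members were called, all of them higher. Those not called include SNORA104, SNORD141A, SNORD3A and the members from TAF1D. SNORA104 had a negative change there with an adjusted p under 0.05, but under 1.5-fold. In the fit with 1 mean per group it was the member called lower with shSIRT3-2 in Karpas422 (-0.66, limma adjusted p = 0.00684; 8.94% of all genes) and in OCI-Ly1 (-0.74, limma adjusted p = 0.00611; 5.36%) and with shSIRT3-1 in HBL1 (-0.77, limma adjusted p = 9.53e-04; 20.5%). It read 4.14, 4.68 and 3.58 CPM with shCTRL, 3.03, 3.68 and 2.76 CPM with shSIRT3-1 and 2.68, 2.88 and 2.19 CPM with shSIRT3-2 in Karpas422. In OCI-Ly1 it read 2.71, 3.35 and 3.01 CPM with shCTRL, 2.47, 1.91 and 2.62 CPM with shSIRT3-1 and 1.92, 1.72 and 1.66 CPM with shSIRT3-2. In HBL1 it read 1.19, 1.57 and 1.42 CPM with shCTRL, 0.793, 0.889 and 0.657 CPM with shSIRT3-1 and 1.57, 1.23 and 1.21 CPM with shSIRT3-2. The shSIRT3-1 group of Karpas422 and the shSIRT3-2 group of HBL1 overlapped the controls and the others lay below them. No knockdown library exceeded the highest control of its line, with a log2 fold change of -0.49 ± 0.12 (SE), limma adjusted p = 0.00177. RefSeq places SNORA104 in ADGRE3, which held 0.296 CPM or less, below every value of SNORA104. SNORD141A had a log2 fold change of -0.05 ± 0.08 (SE), limma adjusted p = 0.636.

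SNORD3A, a guide of the early rRNA precursor cleavages, had its highest values in replicate 3 of the HBL1 groups. It read 0.558, 0.786 and 3.29 CPM with shCTRL, 0.327, 0.20 and 0.82 CPM with shSIRT3-1 and 3.34, 1.93 and 19.2 CPM with shSIRT3-2 in HBL1 and at most 0.262 CPM in the other lines. The average change was 0.04 ± 0.39 (SE; limma adjusted p = 0.95), and its near-identical gene copies may share its reads. None of the 5 members from introns of TAF1D was called (SNORA8, SNORA18, SNORA32, SNORA40 and SNORD5), in the comparison over 3 lines, with log2 fold changes of 0.19 to 0.40. SNORA8, SNORA32 and SNORD5 had a limma adjusted p under 0.05 there (3 also unadjusted), and edgeR and DESeq2 also called 0. In the limma fits of single lines, SNORA32 (0.67) and SNORD5 (0.63) were called higher in Karpas422 (3.87% of all genes) and SNORA8 (0.74) in HBL1 (5.67%). TAF1D codes for a subunit of the RNA polymerase I selectivity factor and changed by -0.22 ± 0.07 (SE; limma adjusted p = 0.0189). SNORA18 read 1.26, 1.4 and 1.52 CPM with shCTRL, 1.4, 1.1 and 1.76 CPM with shSIRT3-1 and 1.28, 0.97 and 1.25 CPM with shSIRT3-2 in OCI-Ly1, and 3.02, 2.19 and 2.88 CPM with shCTRL, 4.43, 3.67 and 4.49 CPM with shSIRT3-1 and 4.12, 3.54 and 2.68 CPM with shSIRT3-2 in Karpas422.

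The hairpins were then taken singly. shSIRT3-1 was compared with shCTRL over 3 lines and 58 members were called higher, with 3.92% of all genes. None was called lower (9.09% of all genes), with 1 lower at an unadjusted p under 0.05 and 0 by edgeR and DESeq2. With shSIRT3-2, 44 members were called higher (3.29% of all genes) and 0 lower (10.2%), with 2 lower at an unadjusted p under 0.05 and 0 by edgeR and DESeq2. Among the 33 members the counts called higher were 23 and 16. The medians over all members were 0.83 and 0.63. These comparisons share the shCTRL libraries.

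Compared directly, shSIRT3-2 was lower than shSIRT3-1 for 63 of 79 members, with a median difference of -0.17 on the log2 scale, against 0 for all genes. Of the 79, 9 had an adjusted p under 0.05, and 1 passed the fold threshold as well: SNORD3A, higher with shSIRT3-2 by 1.21 (limma adjusted p = 0.0438), where 5.27% of all genes were called higher. No member was called lower (6.05% of all genes), although 16 were lower at an unadjusted p under 0.05. edgeR and DESeq2 each called 1 member in this comparison. The SNORD3A call rested on few libraries and was lost without any of the 3 replicate numbers. SNORA73B (1.08 with shSIRT3-1 and 0.62 with shSIRT3-2, limma adjusted p = 0.00849 for the difference), SNORA48 (limma adjusted p = 0.0364) and SNORA73A (limma adjusted p = 0.0462) had the lowest p of the H/ACA class. SNORD141A, SNORD76 and SNORD44 had the lowest p of the C/D class, with differences of -0.30, -0.45 and -0.38. Residual SIRT3 was 1.06 to 2.79 CPM with shSIRT3-1 and 2.84 to 6.24 CPM with shSIRT3-2.

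Fitted within each line with limma, HBL1 gave the most calls. Of 77 members tested there 61 were called higher (5.67% of all genes) and 0 lower (15.2%), with a median of 0.96 on the log2 scale. In Karpas422, 23 of 33 were called higher (3.87%) and 0 lower (8.63%), with a median of 0.75. In OCI-Ly1, 1 of 41, SNORA67 from EIF4A1, was called higher (2.00%) and 0 lower (2.86%), with a median of 0.43. Many of the members tested had entered only with the help of knockdown libraries. Among those that met the rule in the shCTRL libraries, 24 of 32 were called higher in HBL1, 18 of 26 in Karpas422 and 1 of 30 in OCI-Ly1. In the fit of all 27 libraries with 1 mean per group, which shares the spread between lines and tests all 79 members, the counts called higher were 65, 54 and 11 in the same order, where 6.16, 3.83 and 2.75% of all genes were. In the fits of single lines, without replicate 1 or 2 the count fell to 4 and 5 in HBL1 and to 3 and 10 in Karpas422, and in OCI-Ly1 it was 0 without any of the 3. The shares of all genes in these reduced fits are not given here. At an unadjusted p under 0.05, 1 member was lower in each line. By edgeR and DESeq2 that count of calls was 0 in Karpas422 and HBL1 and 1 in OCI-Ly1.

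Over all 27 libraries, the response differed between lines for 14 of 79 members (limma F test of 4 interaction terms, adjusted p under 0.05) and for 41.8% of all genes. Among the 33 members that met the level rule in the shCTRL libraries alone, it differed for 5. The lowest p was that of SNORD4A, from RPL23A, with a log2 fold change of 1.19 in HBL1, 1.16 in Karpas422 and 0.28 in OCI-Ly1 (limma adjusted p = 0.0031). SNORD4A met the level rule only with the help of knockdown libraries, so its rank and p are partly set by that rule. It read 0.355, 0.377 and 0.482 CPM with shCTRL, 0.868, 1.06 and 0.955 CPM with shSIRT3-1 and 1.27, 1.06 and 1.11 CPM with shSIRT3-2 in HBL1 and 0.579, 0.528 and 0.617 CPM with shCTRL, 0.608, 0.976 and 0.868 CPM with shSIRT3-1 and 0.564, 0.696 and 0.677 CPM with shSIRT3-2 in OCI-Ly1. In HBL1 and Karpas422 every knockdown library lay above the controls, and in OCI-Ly1 the groups overlapped. SNORA24 (from SNHG8) changed by 0.97, -0.12 and 0.88 in Karpas422, OCI-Ly1 and HBL1 (limma adjusted p = 0.0409). SNORD31 (from SNHG1) changed by 0.90, 0.05 and 0.82 in the same lines (limma adjusted p = 0.0374). SNORA24 met the level rule through HBL1 knockdown libraries alone, which favours such a difference. SNORA104 was negative in all 3 lines. In HBL1 it changed by -0.77 with shSIRT3-1 and -0.06 with shSIRT3-2, and in OCI-Ly1 by -0.37 and -0.74. Over the 3 lines its hairpins differed by 0.02 (limma adjusted p = 0.932), and within a line they were not compared by a test. Without replicate 3 of HBL1 with shSIRT3-1 the count of 14 became 23, and without the libraries numbered 1 or 2 it became 0 and 4. The shares of all genes in these reduced fits are not given here.

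**Figure D4:**
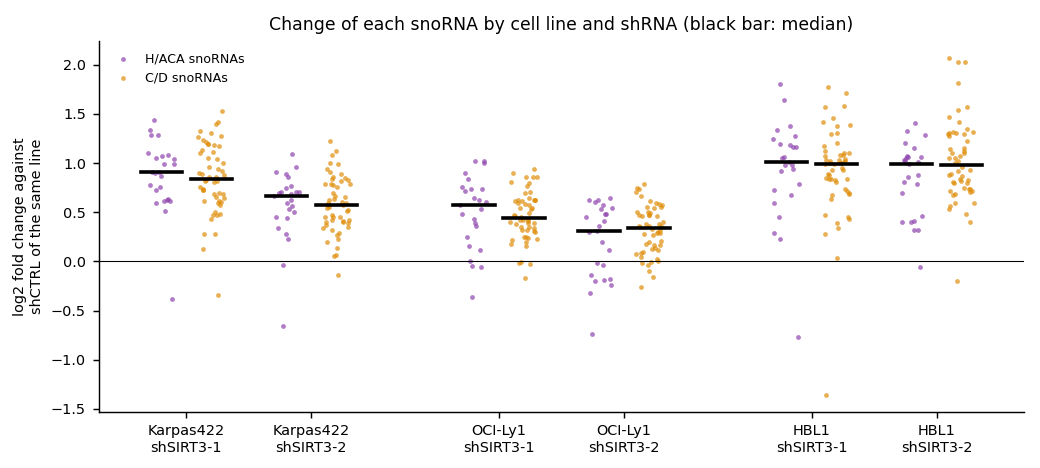
Log2 fold change of each member against shCTRL of the same line, by line, shRNA and class, from the fit with 1 mean per group. Points are members and black bars medians. The medians are highest in HBL1, at 0.98 to 1.01, and lowest in OCI-Ly1 with shSIRT3-2, at 0.31 and 0.34. The lowest point is SNORD3A in HBL1 with shSIRT3-1, at -1.36.

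The list of snoRNAs that act in pre-rRNA cleavage holds 17 genes, of which 11 were members and 9 were called higher in the comparison of both shRNAs (2.45% of all genes), with a median of 0.78. Of these 11 members, 7 entered only with the help of knockdown libraries, and 5 of the 9 calls are among them. The other 4 (SNORD22, SNORA63, SNORA73A and SNORA73B) met the rule in the shCTRL libraries alone and were all called higher. The call of SNORD22 was kept under 11 of the alternatives run and changed under 4, with log2 fold changes from 0.443 to 0.804. SNORD3A and SNORD14B were not called. SNORD22, required for small-subunit rRNA maturation, had a log2 fold change of 0.59 ± 0.12 (SE), limma adjusted p = 4.57e-04, and SNORA62 a log2 fold change of 0.69 ± 0.11 (SE), limma adjusted p = 3.03e-05. SNORA73A and SNORA73B, an H/ACA pair from SNHG3, changed by 0.84 and 0.85. SNORA73A read 0.422, 0.324 and 0.585 CPM with shCTRL, 1.15, 0.905 and 1.87 CPM with shSIRT3-1 and 1.1, 0.918 and 0.822 CPM with shSIRT3-2 in Karpas422 and 2.02, 2.06 and 2.75 CPM with shCTRL, 4.21, 3.83 and 3.4 CPM with shSIRT3-1 and 2.6, 2.77 and 3.17 CPM with shSIRT3-2 in HBL1. In Karpas422 both knockdown groups lay above the controls, and in HBL1 the shSIRT3-2 values overlapped the controls.

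The SNORD14 copies compare like sequences in different hosts. The copies in HSPA8 (SNORD14C, SNORD14D and SNORD14E) changed by 1.15, 1.11 and 0.78, and those in the ribosomal protein gene RPS13 (SNORD14A and SNORD14B) by 0.71 and 0.55. HSPA8 itself changed by 0.92 ± 0.19 (SE; limma adjusted p = 3.69e-04) and RPS13 by 0.16 ± 0.07 (SE; limma adjusted p = 0.0676). In HBL1 the HSPA8 copies changed by 1.91, 1.90 and 1.60 and the RPS13 copies by 0.96 and 0.90. HSPA8 spanned 399 to 579 CPM with shCTRL, 478 to 1041 CPM with shSIRT3-1 and 1437 to 1765 CPM with shSIRT3-2 in that line. None of the 5 copies reached 1 CPM in any shCTRL library, and SNORD14A and SNORD14E met the level rule through HBL1 knockdown libraries alone, which favours rises in that line. These values are a description, and the difference between the copies was not tested.

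A host passed the level rule for 72 members, 34 hosts in all, and their median log2 fold change was 0.03, against 0.72 for those snoRNAs. Of the 34 hosts, 2 were called higher (HSPA8 and SNHG25; 2.45% of all genes) and 1 lower (SNHG8; 7.64% of all genes). SNHG25 lay near the level limit, averaging 0.68 CPM with shCTRL, 1.36 with shSIRT3-1 and 1.15 with shSIRT3-2. Knockdown libraries may have helped it to pass, which favours a rise. In 71 of 72 cases the log2 fold change of the snoRNA exceeded that of its host, by a median of 0.74. With a pseudocount of 1 it did so in 67 cases, by a median of 0.39. Most of these members had entered only with the help of knockdown libraries, which favours a rise. Among the 29 that met the level rule in the shCTRL libraries alone, from 14 hosts, 29 exceeded their host, also by a median of 0.74. Of the 54 called members with a tested host, 50 had a host that was not called. As a description across 34 hosts, which share the libraries with their snoRNAs, Pearson's r between a host and the mean of its snoRNAs was 0.28, and 0.17 without HSPA8. EIF4A1, the host of SNORA48, SNORD10 and SNORA67, was listed at 0 in every library and ADGRE3 stayed under the level rule.

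SNHG1, a host transcript without a protein product, carried 8 members (SNORD22 and the 7 from SNORD25 to SNORD31). All but SNORD25 were called higher (7 of 8, where 2.45% of all genes were), and the changes ran from 0.50 for SNORD25 to 1.09 for SNORD30, while SNHG1 itself changed by -0.57 ± 0.12 (SE; limma adjusted p = 4.58e-04). In HBL1, SNHG1 went from 211 to 284 CPM with shCTRL to 85.7 to 162 CPM with shSIRT3-1 and 129 to 153 CPM with shSIRT3-2. In OCI-Ly1 it held 58.7 to 123, 65.1 to 67.9 and 61.0 to 64.1 CPM, which overlap. Against the same share of all genes, all 7 members from GAS5 were called higher (0.66 to 0.99), and GAS5 changed by -0.09 ± 0.08 (limma adjusted p = 0.413). All 4 from EIF4A2, a translation initiation factor gene, were called higher (0.82 to 0.99), and EIF4A2 changed by 0.07 ± 0.09 (limma adjusted p = 0.56). The pair from ZFAS1, SNORD12 and SNORD12B, was called higher beside a ZFAS1 change of -0.42 (limma adjusted p = 6.36e-04). This pair met the level rule only with the help of knockdown libraries, which favours a rise. The same holds for SNORD28 from SNHG1, SNORD78 and SNORD81 from GAS5 and SNORA81 from EIF4A2.

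**Figure D5:**
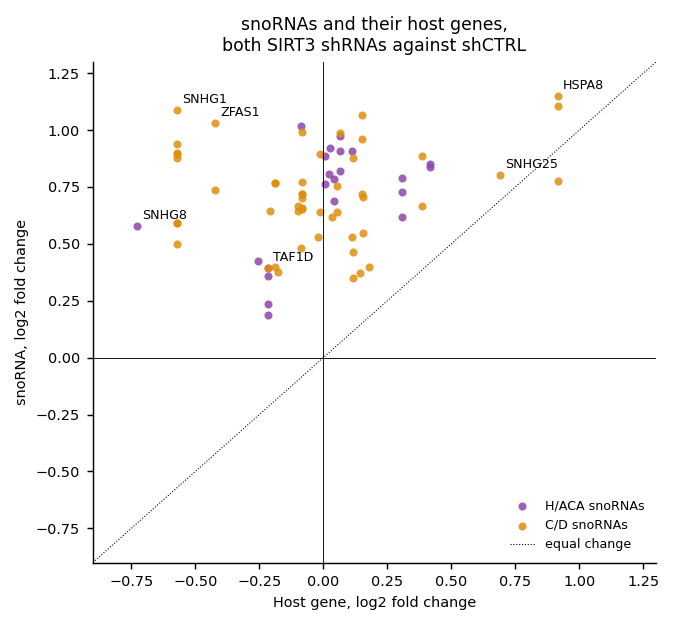
Log2 fold change of each of 72 members against that of its host gene, both SIRT3 shRNAs against shCTRL. The dotted line marks equal change. All points but 1, SNORD14E at HSPA8, lie above it. The SNHG1 members form a column at -0.57.

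Of 32 genes for core proteins, assembly factors and nucleases or their cofactors, 0 were called higher (2.45% of all genes) and 1 lower (7.64%), shares close to those of all genes. At an unadjusted p under 0.05, 5 were higher and 9 lower, and edgeR and DESeq2 called 0 higher and 1 lower. The gene called was ZCCHC8, a scaffold of the nuclear complex that hands RNAs to the exosome, with a log2 fold change of -0.83 ± 0.12 (SE; limma adjusted p = 9.69e-06). Its partner RBM7 changed by -0.44 ± 0.09 (limma adjusted p = 6.66e-04), the exonuclease DIS3 by -0.25 (limma adjusted p = 6.53e-04) and the deadenylase PARN, which trims H/ACA RNAs, by -0.33 (limma adjusted p = 4.13e-04), all under the fold threshold. The nuclear exonucleases EXOSC10 and XRN2 changed the other way, by 0.20 and 0.19 (limma adjusted p = 0.00434 and 0.0112). The C/D methyltransferase FBL changed by -0.01, NOP58 by -0.07 and NOP56 by 0.39. The H/ACA pseudouridine synthase DKC1 changed by -0.14 and GAR1 by -0.21, which did not pass the test, and NHP2 and NOP10 by 0.30 and 0.23 (limma adjusted p = 0.00666 and 0.00499). The part of these genes in the snoRNA levels was not tested.

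Other short noncoding RNAs were compared in the same fit. Of 6 tested genes with symbols of small Cajal body, nuclear and signal recognition particle RNAs, 2 were called higher (2.45% of all genes). They were SCARNA12 (0.75 ± 0.12, limma adjusted p = 1.78e-05), a Cajal body guide RNA, and RN7SL832P (0.61). RN7SL832P is by its symbol a pseudogene, and averaged 0.37 CPM with shCTRL, 0.71 with shSIRT3-1 and 0.51 with shSIRT3-2. The signal recognition particle RNA genes RN7SL1 and RN7SL2 changed by -0.06 and -0.04 (limma adjusted p = 0.893 and 0.934). Of 19 tested microRNA hairpins, 0 were called in either direction (2.45% of all genes higher and 7.64% lower), with 3 higher and 1 lower at an unadjusted p under 0.05 and 0 by edgeR and DESeq2. Their median was -0.02. Taken singly, 3 were called higher with shSIRT3-1 (3.92% of all genes; 6 by edgeR and by DESeq2) and 2 lower with shSIRT3-2 (10.2% of all genes; 3 by edgeR and by DESeq2). Of 10 histone mRNAs, a class that mostly lacks a poly(A) tail, 0 were called with both shRNAs (against the same shares of all genes), 0 at an unadjusted p under 0.05 and 0 by edgeR and DESeq2. With shSIRT3-1 7 of them were called higher (3.92% of all genes; median 0.91), and with shSIRT3-2 the median was -0.42. HIST1H2BG, HIST1H4H, HIST1H3H and HIST4H4 averaged 0.273 to 0.343 CPM with shCTRL, 0.155 to 0.299 with shSIRT3-2 and 1.04 to 1.40 with shSIRT3-1. They may have met the level rule through shSIRT3-1 libraries, which favours a rise there, so this count is a description. In HBL1 the summed histone level was 35.6 to 89.6 CPM with shCTRL, 102 to 229 CPM with shSIRT3-1 and 42.8 to 53.7 CPM with shSIRT3-2, while the snoRNA sums were high with both hairpins. In the other lines the histone sums with shCTRL and with shSIRT3-1 overlapped. In that order they were 46.33 to 64.24 and 54.86 to 74.35 CPM in Karpas422. In OCI-Ly1 they were 13.77 to 23.86 and 21.52 to 104.5 CPM. The part of RNA selection in the snoRNA levels was not tested.

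The 240 snoRNAs under the level rule gave the same direction where they were called. In the limma fit without a filter 37 were called higher and 0 lower, with 89 higher and 1 lower at an unadjusted p under 0.05. In that fit 1.64% of all 23179 genes were called higher, and 1123 genes were called lower. Their median log2 fold change was 0.12, on a scale where the pseudocount of 0.1 compresses such low values.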

How the data were processed

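Total RNA was made into 27 TruSeq libraries with random-primed first strands. Such a kit selects RNA by size and poly(A) tail, although the paper does not describe this step. Short RNAs without a tail may thus be captured only in part. The values need not stand for the abundance of mature snoRNA, which was not tested. The authors aligned the reads with STAR to hg19 and counted them over RefSeq genes. The deposited values carry the name FPKM. Within a library, however, every value is a whole number of equal steps that do not depend on gene length, so the unit is CPM, as the authors made it from gene counts. What else the denominators count is not given in the sources used here. Whole reads were recovered by division by the step (tolerance 1e-06 of a read) in all libraries for edgeR and DESeq2, although for 2 of them, both of OCI-Ly1, the size of a step lay near a decimal unit and the recovery is less sure.

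limma 3.58.1 was run on genes that reached 1 CPM in 3 or more of the fitted libraries (variance trend, Benjamini-Hochberg adjustment over all genes), on log2(CPM + 0.1) with cell line and shRNA as additive terms. This replaces the count model of the study because the deposited unit is CPM. Calls needed an adjusted p under 0.05 and a change over 1.5-fold. Interactions, each line alone and the 9 shCTRL libraries were fitted likewise. Scripts were tested on simulated data.

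The members and the lists of genes were chosen with earlier results of these data known. Named are, per class, the 5 highest members, the 5 largest called changes in each direction, the 3 lowest p for the interaction, between shRNAs and between lines, the pre-rRNA cleavage members, called genes of the snoRNA protein lists, and hosts of 4 or more members. Other members are named to show where a list, sequence or host stands and were chosen after their values were seen. Alternatives were pseudocounts of 1 and 0.01, no filter, a filter at 10 CPM, no variance trend, the replicate number as a block, quantile normalization, median-ratio scaling, edgeR 4.0.16 and DESeq2 1.42.0 on recovered reads, and leaving out replicates or lines. No 2 libraries of the same group agreed within sampling noise. Sequences were read from hg19 with GENCODE positions.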

Additional observations from a re-analysis of the deposited data

Results flagged for a closer look

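For 11 named snoRNAs the response to the SIRT3 shRNAs differed between the cell lines in the limma F test of the interaction. Such a difference was found for 14 of 79 members and for 41.8% of all genes, and without the libraries numbered 1 for 0 members. SNORD4A, SNORD3A, SNORD14E, SNORA16A, SNORA24 and SNORA52 met the level rule only with the help of knockdown libraries, all from HBL1 for each but SNORD4A, which favours such a difference. Changes are log2 fold changes of both shRNAs against shCTRL in Karpas422, OCI-Ly1 and HBL1, in that order. SNORD4A, from RPL23A, changed by 1.16, 0.28 and 1.19 (limma adjusted p = 0.0031). SNORA104, which RefSeq places in ADGRE3, changed by -0.52, -0.55 and -0.41 (limma adjusted p = 0.00838). SNORD3A changed by -0.14, -0.08 and 0.34 (limma adjusted p = 0.0216). SNORD14E, from HSPA8, changed by 0.56, 0.17 and 1.60 (limma adjusted p = 0.0291). SNORD31, from SNHG1, changed by 0.90, 0.05 and 0.82 (limma adjusted p = 0.0374). SNORD47, from GAS5, changed by 0.75, 0.27 and 0.95 (limma adjusted p = 0.0382). SNORA16A, from SNHG12, changed by 0.74, 0.29 and 1.15 (limma adjusted p = 0.0407). SNORA24, from SNHG8, changed by 0.97, -0.12 and 0.88 (limma adjusted p = 0.0409). SNORA4, from EIF4A2, changed by 1.19, 0.53 and 1.20 (limma adjusted p = 0.0421). SNORD2, from EIF4A2, changed by 1.00, 0.53 and 1.43 (limma adjusted p = 0.0492). SNORA52, from RPLP2, changed by 0.66, 0.57 and 1.49 (limma adjusted p = 0.0497). In all 11 the test covers differences between lines of either shRNA, so lines with a similar average can still pass it where the estimates by hairpin are ordered differently, as for SNORD3A and SNORA104, whose hairpins were not compared by a test within a line. Its 4 terms rest on 3 libraries a group, and the part of depth or of single libraries in these differences was not tested beyond leaving libraries out.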

How the results depend on the processing

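No called snoRNA changed sign under the alternatives run. SNORD141A and SNORD3A, not called, ranged from -0.19 to 0.11 and from -0.04 to 0.25. Of the values for named snoRNAs under alternatives, 429 kept their direction and side of the threshold, 37 lost the call, 15 gained it and 8 moved. The counts changed more, and the cause was not tested except that fewer members or libraries were fitted. The background moved too. With both shRNAs, 321 of all 13076 genes were called higher in the main fit, 160 with a pseudocount of 1 and 540 with quantile normalization. Without HBL1 it was 288 of 12131. For the other comparisons under the alternatives the shares of all genes are not given here, so these counts are a description. With a pseudocount of 1 the counts of members called higher were 5 (both shRNAs, 58 otherwise), 11 (shSIRT3-1), 4 (shSIRT3-2), 3 (Karpas422), 0 (OCI-Ly1) and 40 (HBL1), 0 were called between the shRNAs, and 29 differed between lines. With 0.01, 2 were called higher in OCI-Ly1 and 7 differed between lines. With a filter at 10 CPM only SNORD141A was left and all these counts were 0. Without a filter 45 were called higher in Karpas422 and 0 in OCI-Ly1, 0 between the shRNAs, and 5 differed between lines. With quantile normalization 72 were called higher with shSIRT3-2 and 2 in OCI-Ly1, and 55 differed between lines. With median-ratio scaling 0 were called higher in OCI-Ly1, with no variance trend 2, and with DESeq2 6. edgeR and DESeq2 each called 1 member lower in OCI-Ly1. Without HBL1 the counts called higher were 24 (both shRNAs), 30 (shSIRT3-1) and 15 (shSIRT3-2), 1 was called lower with shSIRT3-2 and 2 were called between the shRNAs. Without Karpas422 0 were called between the shRNAs.

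Leaving out the libraries of 1 replicate number at a time gave 0 to 1 members called lower with both shRNAs, 0 to 1 members called lower with shSIRT3-2, 26 to 55 members called higher with shSIRT3-2, 0 to 0 members called between the shRNAs, 0 to 12 members that differed between lines, 3 to 18 members called higher in Karpas422, 0 to 0 members called higher in OCI-Ly1 and 4 to 68 members called higher in HBL1. Without replicate 3 of HBL1 with shSIRT3-1, chosen after seeing the data, 23 members differed between lines and 58 were called higher with both shRNAs and 68 in HBL1. Without replicate number 1, 2 or 3, the genes called higher with both shRNAs were 321 of 12860, 239 of 12804 and 272 of 12768. The shares of all genes for the other counts are not given here.

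Libraries with the same number in 1 line deviated together in 26 of 27 pairs (r over 0.1, mean 0.32, lowest 0.014), and 23 of 27 libraries correlated best with their own number, a hint from the data and not from the labels, which do not say what a number marks. With the number as a replicate block, 58 members were called higher with both shRNAs, 63 in HBL1 alone, 24 in Karpas422 alone and 2 in OCI-Ly1 alone, and 19 differed between lines. In that fit 318 of all 13076 genes were called higher with both shRNAs, and the shares for the other counts are not given here.

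Depth limits the members: with a median of 92 reads, counting error alone is sizeable, and single values rested on as few as 4 reads. The pseudocount shrinks folds at these levels. Reads do not separate mature snoRNA from host introns.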
